A study of Mus musculus with 12 samples.

Results

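Kdr, Flt1, Tek, Angpt1, Angpt2, Pgf, Esm1, Apln, Aplnr and Dll4 encode the receptors and ligands through which endothelial cells are told to grow, sprout or rest. These 10 genes were followed in the cecum of mice during the formation of a postoperative adhesion. They were chosen by name from the 37074 gene names of the array, and all 10 were found. The rule held no measured value, but earlier results of these data were known when it was set. The array carried 16 probes for them, namely 4 for Flt1, 3 for Kdr, 2 for Angpt2 and 1 for each of the other 7 genes.

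New vessels grow when vascular endothelial growth factor A binds the receptor VEGFR2, the product of Kdr, on endothelial cells. VEGFR1, the product of Flt1, binds the same ligand tightly but signals weakly, and it is also the receptor of placental growth factor, the product of Pgf. Angiopoietin-1 from mural and stromal cells activates the receptor Tie2, encoded by Tek, and keeps vessels quiescent, whereas angiopoietin-2 is released by activated endothelium and mostly opposes it. Apelin acts through the receptor APJ on venous and sprouting endothelium, Dll4 is the Notch ligand by which a tip cell restrains its neighbours, and Esm1 is a proteoglycan secreted by tip cells. Granulation tissue, the bed of a healing wound, is rich in such vessels.

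RNA was taken from mouse cecum in 4 groups of 3 arrays each, namely sham-operated controls, which the methods place at 0 h, and cauterized ceca collected at 3, 12 or 72 h. C57BL/6 is the background strain that the methods name, though the labels give no strain. The injury was made with bipolar forceps in the coagulation mode. The labels name no transgene or drug for any group, and the age of the mice was not given in the sources used here. The labels call all 12 mice male, but Xist, a transcript of the inactive X chromosome, gave signal above background in 12 of 12 arrays. Both probes of Ddx3y and both of Eif2s3y, which lie on the Y chromosome, did so in 0 of 12, and 1 of the 6 Kdm5d probes did so in 12. The labelled sex therefore went against Xist, Ddx3y and Eif2s3y in every group alike. The RNA was hybridised to 1-colour microarrays, on which the brightness of a spot measures the amount of a transcript. The share of probes whose signal was well above background ran from 60.2% to 65.2% per array, no spot was saturated, and replicate arrays correlated between 0.985 and 0.992 across probes. The sham and 3 h arrays and 2 of the 12 h arrays lay on one slide, and the other 12 h array lay with the 72 h arrays on a second. The number of arrays limits the precision of every value. The study's text calls the arrays of a group biological replicates, and the labels name no animal.

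Levels below are log2 intensities relative to the 75th percentile of the same array, so that a level of 0 is a probe as bright as that percentile. A gene was taken as changed when it differed more than 2-fold with an adjusted p below 0.05 in limma. Where a gene had several probes, the brightest stood for it. All 10 of these probes were well above background on all 12 arrays, as were 2 further probes of Flt1, while 2 of the 16 probes were so on none. Endothelial RNA was present throughout, since all 23 measured pan-endothelial markers, such as Cdh5 and Emcn, were well above background on all 12 arrays. In whole tissue, fewer cells of a type and less RNA per cell cannot be told apart.

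Few of the 10 genes moved beyond 2-fold. At 3 h only Angpt1 passed, and it fell; 7.37% of all genes passed at that time, 3.26% higher and 4.11% lower. At 12 h Apln rose and Angpt1 fell, where 9.06% of all genes passed, 4.1% higher and 4.96% lower. At 72 h Apln and Aplnr rose and none of the 10 fell, where 8.85% of all genes passed, 4.55% higher and 4.3% lower. The median log2 change of the 10 genes, in the order 3, 12 and 72 h, was -0.55, -0.26 and 0.28, beside medians of 0.08, -0.01 and -0.14 over all genes. By limma's moderated F-test, with the adjusted p alone as the limit, 4 of the 10 differed among the 4 groups, namely Tek, Angpt1, Apln and Aplnr, where 39.3% of all genes passed. The 3 comparisons with sham share the same 3 sham arrays.

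**Figure D1:**
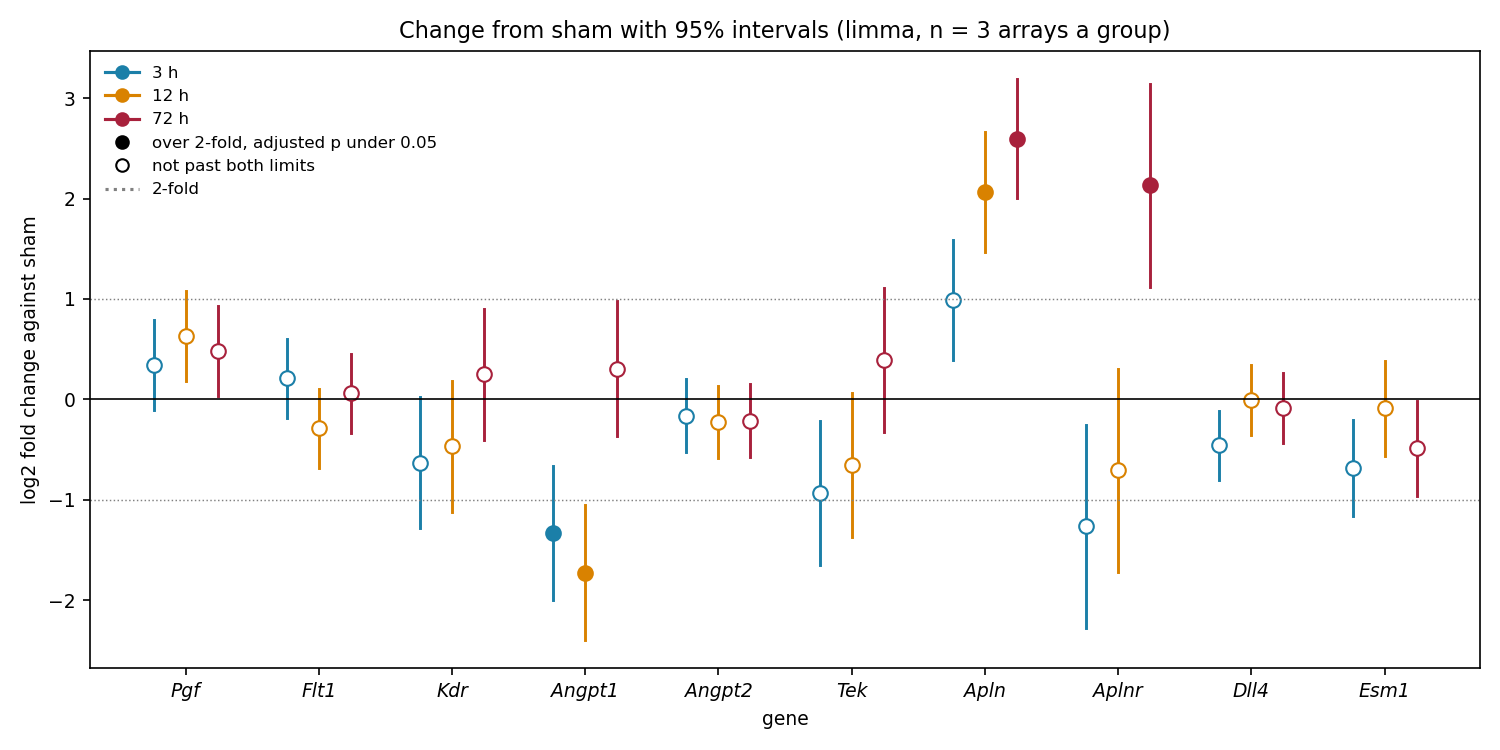
Log2 fold change against sham (vertical axis) for each of the 10 genes (horizontal axis) at 3, 12 and 72 h, with 95% intervals from limma and 3 arrays a group. Filled points passed both limits: Apln at 12 and 72 h and Aplnr at 72 h lie above the upper 2-fold line, and Angpt1 at 3 and 12 h lies below the lower one.

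The ligand apelin showed the largest rise over sham of the 10. Apln (probe on chrX:45378593-45378652 of mm9) had levels of -2.5, -2.48 and -1.97 in the sham ceca and of -1.0, -1.47 and -1.51 at 3 h. At 12 h the levels were -0.07, 0.15 and -0.84, and at 72 h they were 0.50, 0.29 and 0.04. Each time point lay wholly above sham, and the order of the means was sham, 3 h, 12 h and 72 h, with the 12 and 72 h arrays overlapping. Apln rose 4.19-fold at 12 h (log2 change 2.07 ± 0.27, SE, n = 3; adjusted p = 0.000547) and 6.05-fold at 72 h (2.60 ± 0.27, adjusted p = 0.000208). At 3 h the difference was 1.99-fold (0.99 ± 0.27, adjusted p = 0.0285), just short of 2-fold. With the slide as a term of the fit, the change was 2.36 ± 0.23 at 12 h and 3.48 ± 0.37 at 72 h, and on the first slide alone it was 2.36 at 12 h (adjusted p = 0.00135).

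The window upstream of Apln is shown because this gene differed most from sham. It spans the 250 bases before the transcription start, on the minus strand at chrX:48034854-48035103 of GRCm38.p6, from RefSeq, written 5′ to 3′. Capitals mark the letters GGAA, the core bound by ETS factors of endothelial cells, and ACGTG or GCGTG, the core of a hypoxia response element, on either strand.
Apln: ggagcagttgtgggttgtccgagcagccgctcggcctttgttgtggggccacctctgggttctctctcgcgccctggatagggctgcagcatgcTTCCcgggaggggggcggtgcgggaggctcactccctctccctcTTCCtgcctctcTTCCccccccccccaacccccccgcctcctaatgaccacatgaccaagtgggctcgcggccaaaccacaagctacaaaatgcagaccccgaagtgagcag
GGAA occurred 3 times in it on the 2 strands together, and the median over 32851 RefSeq promoter windows of this length was 3, with 93.4% holding at least 1. ACGTG and GCGTG occurred 0 times, where 38.6% of the windows held either. The AP-1 letters TGANTCA, which can overlap with either hypoxia core, were also not in this window and were in 6.75% of all windows.

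The apelin receptor lay below sham first, short of the limits for a call. Aplnr (chr2:84979638-84979697 of mm9), a G-protein-coupled receptor of endothelium, stood at -2.99, -2.59 and -2.73 in sham and at -3.61, -4.16 and -4.33 at 3 h. At 12 h it stood at -3.81, -3.29 and -3.32, and at 72 h at 0.57, -0.83 and -1.65. The 3 and 12 h arrays were all below sham, the 72 h arrays were all above it, and the 72 h arrays spread widely (SD 1.12 against 0.20 in sham). At 72 h Aplnr rose 4.38-fold over sham (2.13 ± 0.45, n = 3; adjusted p = 0.00922). The values at 3 h (-1.27 ± 0.45, adjusted p = 0.082) and 12 h (-0.70 ± 0.45, adjusted p = 0.332) did not pass. The 3 h difference passed in 5 of 27 alternatives, among them the first slide alone (adjusted p = 0.0125). With normexp background correction, which adds a fixed offset to every signal, the values were -0.25 at 3 h (adjusted p = 0.537) and -0.25 at 12 h (adjusted p = 0.533). The 72 h call did not hold with the slide as a term (1.90 ± 0.86, adjusted p = 0.268). In that fit slide and time are separated by 1 array of the 12 h group. An unmoderated test per probe, which uses the spread of the probe alone, also ended the call (2.13, adjusted p = 0.139).

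**Figure D2:**
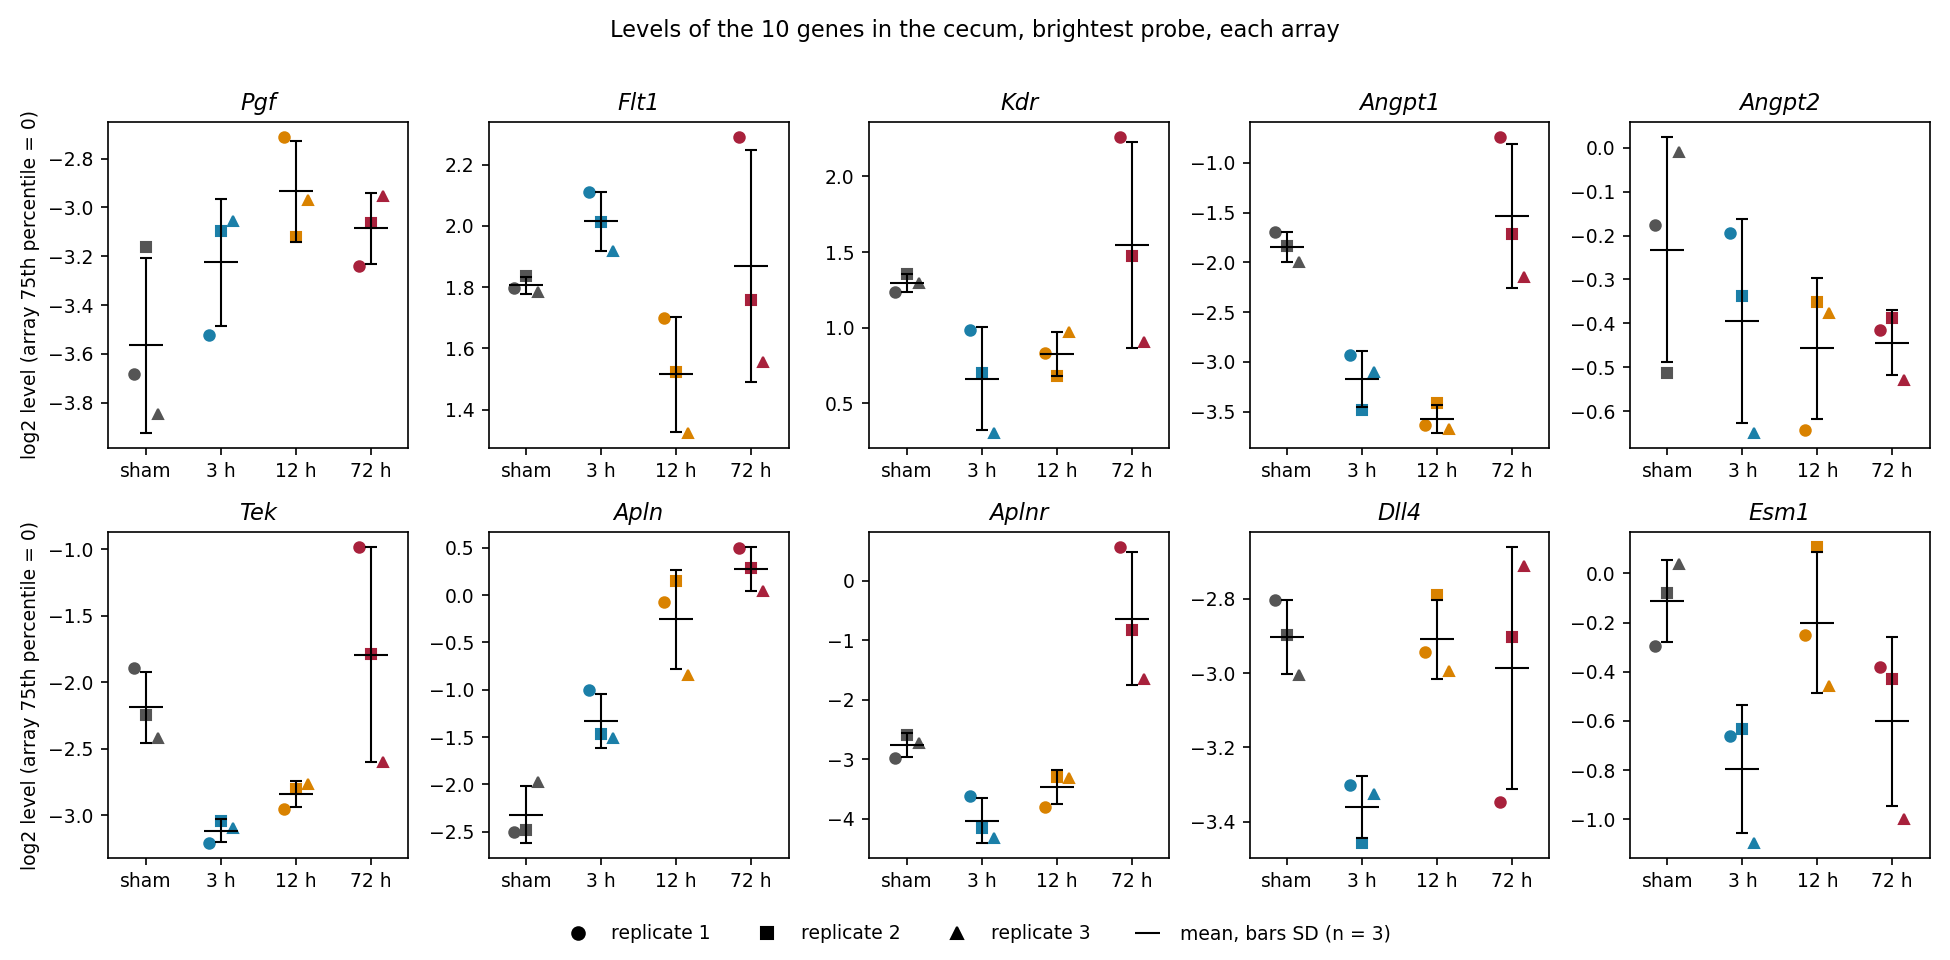
Log2 level relative to the array's 75th percentile (vertical axes, 1 scale per gene) of the brightest probe of each gene in sham, 3, 12 and 72 h ceca (horizontal axes), with 1 symbol per array and the mean with SD over 3 arrays. Apln climbs from -2.32 in sham to 0.28 at 72 h, and Angpt1 is low at 3 and 12 h only. The highest array is 72 h replicate 1 for Kdr, Flt1, Tek, Angpt1, Apln and Aplnr.

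Among the angiopoietins the ligands of Tie2 differed in behaviour. Angpt1 (chr15:42256343-42256402 of mm9), the ligand that activates Tie2, had levels of -1.70, -1.84 and -2.00 in sham and -2.94, -3.48 and -3.11 at 3 h. By 12 h the levels were -3.63, -3.41 and -3.67, and by 72 h they were -0.74, -1.72 and -2.15. The 3 and 12 h arrays were all lower than the sham arrays and overlapped with one another, whereas the 72 h arrays overlapped with sham. Angpt1 fell 2.51-fold at 3 h (-1.33 ± 0.30, n = 3; adjusted p = 0.0128) and 3.31-fold at 12 h (-1.73 ± 0.30, adjusted p = 0.00284). At 72 h it was 0.31 ± 0.30 from sham (adjusted p = 0.523; 95% interval -0.36 to 0.98). On the first slide alone the fall at 12 h was -1.68 (adjusted p = 0.00221). With normexp background correction, which adds a fixed offset to every signal, the values were -0.49 at 3 h (adjusted p = 0.0644) and -0.72 at 12 h (adjusted p = 0.0113), under 2-fold, and without sham replicate 1 the 3 h call ended narrowly (adjusted p = 0.0505).

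Angpt2 (chr8:18690323-18690382 of mm9), the ligand stored in endothelial granules, stood between -0.65 and -0.01 on all 12 arrays. All 4 groups overlapped, and the largest of the differences from sham was -0.23 ± 0.16 at 12 h (adjusted p = 0.392; 95% interval -0.59 to 0.14). The intervals at 3 h (-0.52 to 0.20) and 72 h (-0.57 to 0.15) also lay within 2-fold. A second Angpt2 probe was above background on 1 of 12 arrays and gives no level here.

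Tek (chr4:94540861-94540919 of mm9), the receptor of both, had levels of -1.90, -2.24 and -2.42 in sham and of -3.21, -3.04 and -3.10 at 3 h. Its levels were -2.95, -2.80 and -2.77 at 12 h and -0.99, -1.79 and -2.60 at 72 h. All 3 and 12 h arrays were below sham, and the 72 h arrays straddled it. No comparison of Tek with sham passed, with values of -0.93 ± 0.32 at 3 h (adjusted p = 0.0734), -0.65 ± 0.32 at 12 h (adjusted p = 0.197) and 0.39 ± 0.32 at 72 h (adjusted p = 0.442). Between time points Tek rose 2.5-fold from 3 to 72 h (1.32 ± 0.32, adjusted p = 0.012), and without 72 h replicate 1 this was 0.92, under 2-fold.

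Kdr, the principal signalling receptor for VEGF, had 1 usable probe (chr5:76329309-76329368 of mm9). It measured 1.24, 1.35 and 1.30 in sham and 0.98, 0.70 and 0.31 at 3 h. On the 12 h arrays it stood at 0.84, 0.68 and 0.97, and on the 72 h arrays at 2.26, 1.48 and 0.91. The 3 and 12 h arrays lay below every sham array, and the 72 h arrays lay on both sides of sham. The differences from sham were -0.63 ± 0.29 at 3 h (adjusted p = 0.157), -0.47 ± 0.29 at 12 h (adjusted p = 0.317) and 0.25 ± 0.29 at 72 h (adjusted p = 0.587), and none passed. From 3 to 72 h the difference was 1.85-fold (0.89 ± 0.29, adjusted p = 0.0398), under the 2-fold limit. The other 2 Kdr probes, 28.3 and 24.1 kb away, were below background on every array.

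The windows upstream of Kdr and Tek are set side by side because these receptors followed each other most closely of any pair among the 10 genes, with Pearson r = 0.91 over the 12 arrays, which share their 4 groups. Kdr lies on the minus strand at chr5:75978456-75978705 and Tek on the plus strand at chr4:94739039-94739288 of GRCm38.p6 (RefSeq), and capitals mark the same letters as for Apln.
Kdr: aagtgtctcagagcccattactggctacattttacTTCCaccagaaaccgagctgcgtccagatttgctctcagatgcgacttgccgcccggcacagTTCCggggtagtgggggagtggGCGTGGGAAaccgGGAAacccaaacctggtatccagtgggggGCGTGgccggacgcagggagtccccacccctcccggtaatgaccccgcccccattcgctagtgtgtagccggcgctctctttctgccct
Tek: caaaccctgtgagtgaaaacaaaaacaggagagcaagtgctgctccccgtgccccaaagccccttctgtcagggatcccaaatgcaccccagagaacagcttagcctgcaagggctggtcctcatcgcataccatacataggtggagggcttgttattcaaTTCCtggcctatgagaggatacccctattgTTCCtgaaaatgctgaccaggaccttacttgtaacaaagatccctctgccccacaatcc
The Kdr window held GGAA 4 times and GCGTG 2 times, 131 and 89 bases before the start counted to the first letter, and 1 of the GCGTG matches is followed directly by a GGAA match. The Tek window held GGAA 2 times and neither hypoxia core. TGANTCA was in neither window. Windows were found for 7 of the 10 genes, with Angpt1, Angpt2 and Aplnr not among them.

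Flt1 gave a different picture from probe to probe. The brightest probe, designed to NM_010228 (chr5:148373791-148373850 of mm9), stood at 1.80, 1.84 and 1.78 in sham and 2.11, 2.01 and 1.92 at 3 h. The levels were 1.70, 1.52 and 1.32 by 12 h, and 2.29, 1.76 and 1.56 by 72 h. The 3 h arrays were above sham and the 12 h arrays below it, by small margins, and no difference passed (0.21 ± 0.18, -0.29 ± 0.18 and 0.06 ± 0.18 at 3, 12 and 72 h, with adjusted p of 0.427, 0.304 and 0.829).

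The 2 probes designed to ENSMUST00000110529 lay 75.1 and 76.9 kb upstream of it in the gene, which is read from the minus strand. Probe A_55_P2735980 (chr5:148450688-148450747 of mm9) had levels of -1.81, -1.75 and -1.49 in sham and -0.13, -0.47 and -0.64 at 3 h. By 12 h the levels were -0.93, -1.37 and -1.57, and by 72 h they were -0.23, -0.77 and -1.03. All 3 and 72 h arrays were above all sham arrays, and the 12 h arrays overlapped with sham. It rose 2.41-fold at 3 h (1.27 ± 0.23, adjusted p = 0.00485), where 2.96% of all probes rose. At 72 h it was 2.01-fold higher (1.01 ± 0.23, adjusted p = 0.0138), at the edge of the limit, where 4.13% of all probes rose. This call ended in 7 of 25 alternatives. Scaled to the pan-endothelial markers, the value was 0.03 (adjusted p = 0.929). With the slide as a term of the fit it was 1.43 (adjusted p = 0.102), and an unmoderated test per probe gave an adjusted p of 0.0994. The call also ended without sham replicate 1 (0.94), sham replicate 2 (0.97) or 72 h replicate 1 (0.79). Probe A_55_P2800423 (chr5:148448888-148448947 of mm9) was 0.88 ± 0.19 above sham at 3 h (adjusted p = 0.0102), under 2-fold, with no overlap of arrays, and was -0.02 ± 0.19 from sham at 72 h (adjusted p = 0.957). The 2 probes of this transcript thus moved alike at 3 h and apart at 72 h. Flt1 is known to be made both as a full-length receptor and as a shorter secreted form that binds ligand without signalling, and which form each probe measures was not given in the sources used here. The fourth probe was above background on 1 array, at 3 h, and gives no fold.

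**Figure D3:**
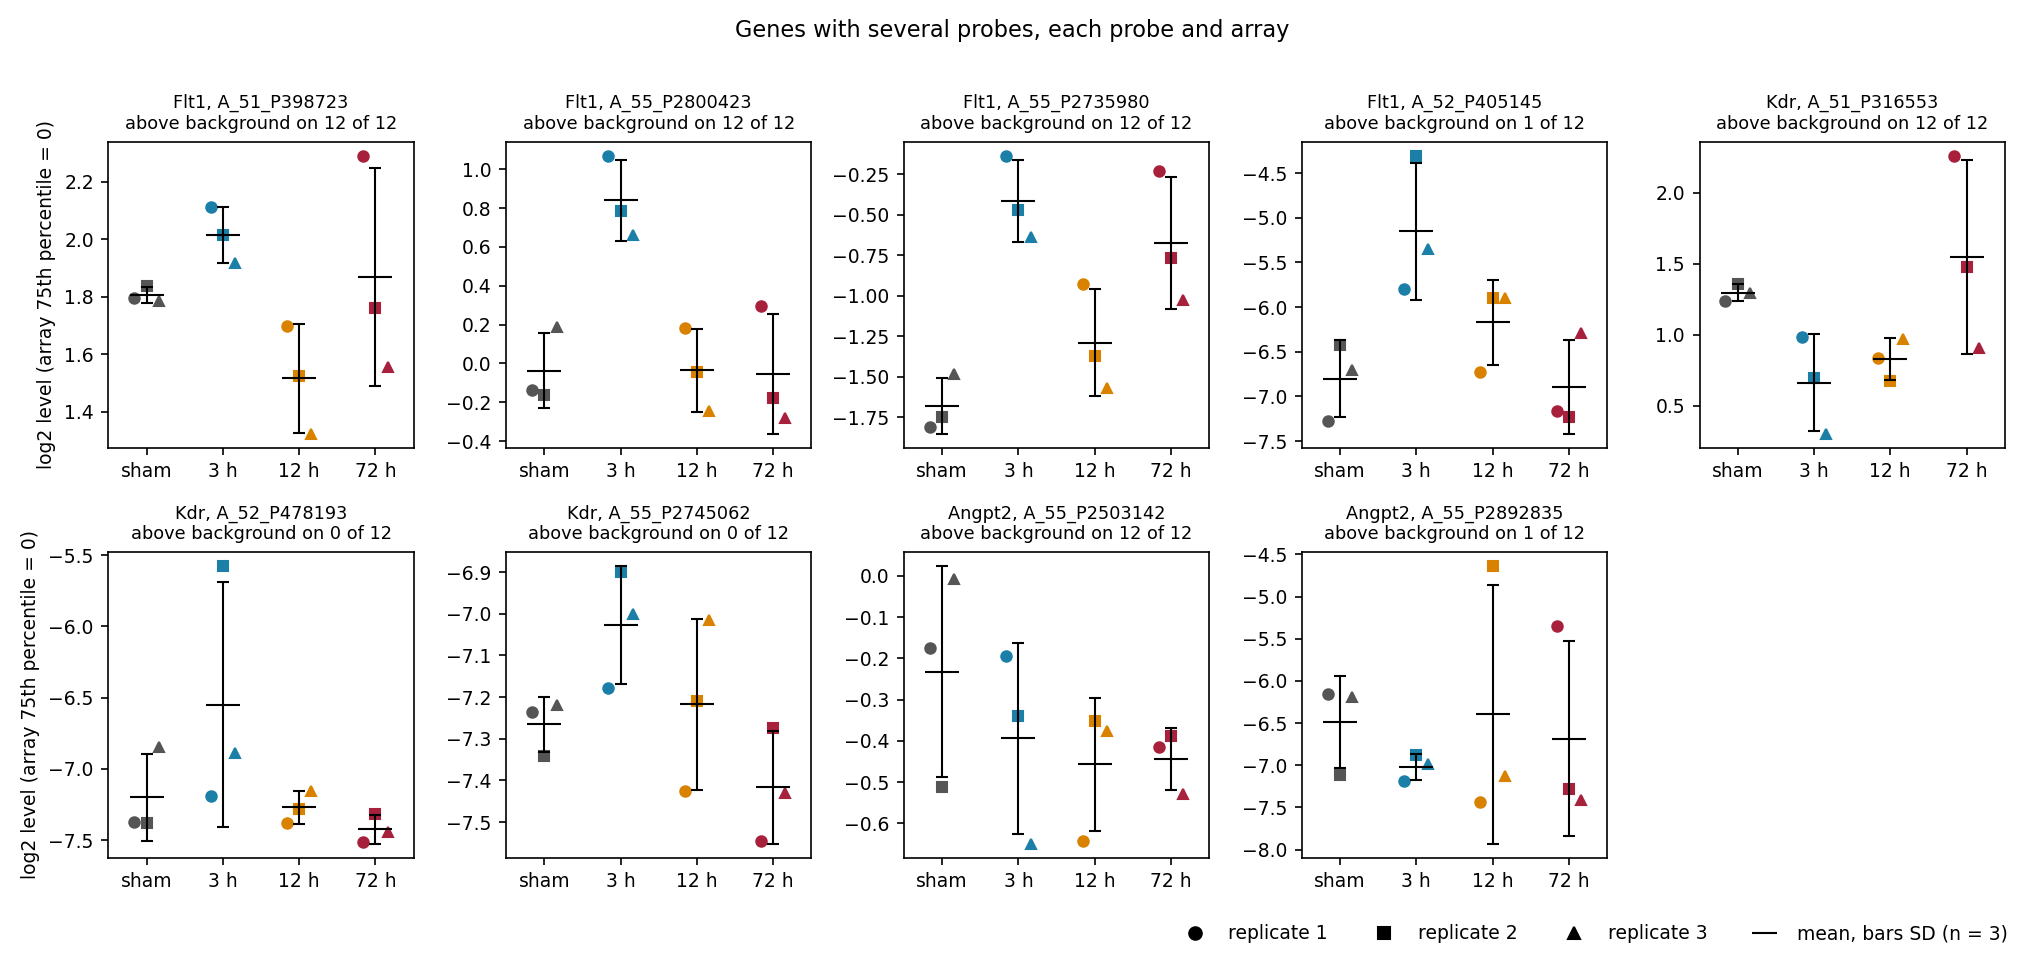
Log2 level relative to the array's 75th percentile (vertical axes, 1 scale per panel) of every probe of Flt1, Kdr and Angpt2 in the 4 groups (horizontal axes), with 1 symbol per array and the mean with SD over 3 arrays. All 3 Flt1 probes above background on 12 arrays have their highest mean at 3 h, and the probes above background on 0 or 1 arrays measure no level.

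Pgf (chr12:86508335-86510337 of mm9, a span wider than the probe), the ligand of VEGFR1, stood at -3.68, -3.16 and -3.85 in sham and -3.52, -3.10 and -3.06 at 3 h. On the 12 h arrays it stood at -2.71, -3.12 and -2.97, and on the 72 h arrays at -3.24, -3.07 and -2.95. The 12 h arrays were above every sham array, though only just above sham replicate 2. The differences were 0.34 ± 0.20, 0.63 ± 0.20 and 0.48 ± 0.20 at 3, 12 and 72 h, and the 12 h value missed the adjusted limit narrowly (adjusted p = 0.0504).

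Dll4 (chr2:119160779-119160838 of mm9) stood at -2.80, -2.90 and -3.0 in sham and at -3.30, -3.46 and -3.32 at 3 h, with 12 h levels of -2.94, -2.79 and -2.99 and 72 h levels of -3.35, -2.90 and -2.71. The 3 h arrays were the only group wholly apart from sham, by -0.46 ± 0.16 (adjusted p = 0.0672). At 12 and 72 h the values were -0.01 ± 0.16 and -0.08 ± 0.16 with 95% intervals of -0.35 to 0.34 and -0.43 to 0.26, both within 2-fold. Unlike the receptors, Dll4 was lowest in replicate 1 of the 72 h group and highest in replicate 3.

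Esm1 (chr13:114008204-114008263 of mm9) stood at -0.29, -0.08 and 0.04 in sham and -0.66, -0.63 and -1.10 at 3 h. The levels were -0.25, 0.11 and -0.46 by 12 h, and -0.38, -0.43 and -1.0 by 72 h. The 3 and 72 h arrays were all below sham. The 3 h difference was -0.68 ± 0.21 (adjusted p = 0.0496), significant but under 2-fold, and the values at 12 and 72 h were -0.09 ± 0.21 (adjusted p = 0.869) and -0.49 ± 0.21 (adjusted p = 0.142). Dll4 and Esm1, the genes described here by their tip cell role, were thus called at no time on this scale. Set against the pan-endothelial mean of the same array, both were called lower than sham at 72 h. The values there were -1.06 for Dll4 and -1.47 for Esm1, beside a median of -1.12 over all genes. Apln, whose product acts on sprouting endothelium, rose at 12 and 72 h, so Dll4 and Esm1 do not stand for every gene tied to sprouting.

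Comparison of the time points with one another asked when the genes changed course. From 3 to 12 h only Apln of the 10 rose (1.08 ± 0.27, adjusted p = 0.0355), where 3.46% of all genes passed and 1.89% were higher, and this call ended in 12 of 27 alternatives, among them those without sham replicate 2, 3 h replicate 2 or 3, 12 h replicate 1 or 2, or 72 h replicate 2 (0.87 to 1.08, adjusted p from 0.0519 to 0.113). From 12 to 72 h Tek, Angpt1 and Aplnr rose, where 7.52% of all genes passed and 4.33% were higher. The rises were 7.14-fold for Aplnr (2.84 ± 0.45, adjusted p = 0.00272), 4.09-fold for Angpt1 (2.03 ± 0.30, adjusted p = 0.00185) and 2.07-fold for Tek (1.05 ± 0.32, adjusted p = 0.0493). The call for Tek ended in 20 of 27 alternatives, in those leaving out any array except 72 h replicate 3, and its value was 0.64 without 72 h replicate 1. From 3 to 72 h Tek, Angpt1, Apln and Aplnr rose, where 11.7% of all genes passed and 6.19% were higher, with the largest value 10.5-fold for Aplnr (3.40 ± 0.45, adjusted p = 0.000552). With the slide as a term, Apln from 3 to 12 h (1.37 ± 0.23, adjusted p = 0.0147) and from 3 to 72 h (2.49 ± 0.37, adjusted p = 0.0133) and Angpt1 from 12 to 72 h (2.13 ± 0.45, adjusted p = 0.0345) still passed. Aplnr did not from 12 to 72 h (2.68, adjusted p = 0.0634) or from 3 to 72 h (3.17, adjusted p = 0.0832), nor did Tek (0.98, adjusted p = 0.271, and 1.22, adjusted p = 0.243), nor Angpt1 from 3 to 72 h (1.79, adjusted p = 0.0905).

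The 3 mice at 72 h differed from one another in a like way in several of these genes. Replicate 1 was highest and replicate 3 lowest in Kdr, Flt1, Tek, Angpt1, Esm1, Apln and Aplnr, while Pgf and Dll4 had the reverse order. Such orders were not counted over all genes. The mean level of the 23 pan-endothelial markers was also highest in replicate 1, at 1.42, 0.81 and 0.26 in replicates 1, 2 and 3. It lay between -0.19 and -0.11 in sham, -0.42 and -0.25 at 3 h and -0.34 and -0.23 at 12 h. Of these 23 markers, 12 rose at 72 h and none fell, where 4.55% of all genes rose. All 23 were on the positive side, and their median log2 change was 1.09. The sham and 72 h arrays lay on different slides, and no slide-adjusted values are given for these markers or the other lists. Among the 12 that rose were Tie1, the partner receptor of Tie2, and Cdh5, the cadherin of endothelial junctions (1.23 ± 0.30 and 1.76 ± 0.31). Ecscr, a receptor of endothelial filopodia, was another (1.74 ± 0.16). At 3 h none rose and Cldn5, the tight junction claudin of endothelium, fell (-1.68 ± 0.19, adjusted p = 0.000373), and at 12 h Ecscr rose and Cldn5 fell. Without 72 h replicate 1, Aplnr was 1.53 above sham (adjusted p = 0.0101), and Kdr, Flt1, Tek and Angpt1 were at -0.10, -0.15, -0.01 and -0.09.

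Set against the pan-endothelial mean of the same array in place of the 75th percentile, 5 of the 10 genes passed at 72 h. On this scale the median change of all genes was 0.26, 0.11 and -1.12 at 3, 12 and 72 h, and 65.6% of all genes passed at 72 h, 1.75% higher and 63.8% lower. Apln (1.62 ± 0.33, adjusted p = 0.00145) and Aplnr (1.15 ± 0.32, adjusted p = 0.00636) remained higher at 72 h than in sham. Aplnr measured -0.85, -1.64 and -1.91 at 72 h on this scale against -2.87, -2.45 and -2.54 in sham, with no overlap. Angpt2 (-1.19 ± 0.30), Esm1 (-1.47 ± 0.29) and Dll4 (-1.06 ± 0.36) were lower, beside the median of -1.12 over all genes. Kdr, Flt1, Tek and Angpt1 stood at -0.73, -0.92, -0.59 and -0.67, all above the all-gene median and none past 2-fold. At 3 and 12 h Angpt1 was lower on this scale too (-1.15 ± 0.27, adjusted p = 0.0202, and -1.61 ± 0.27, adjusted p = 0.00127), while Apln was higher at 12 h (2.19 ± 0.33, adjusted p = 0.000555). At 3 h 4.81% of all genes passed on this scale (3.02% higher, 1.79% lower), and at 12 h 6.82% (3.83% higher, 2.99% lower).

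**Figure D4:**
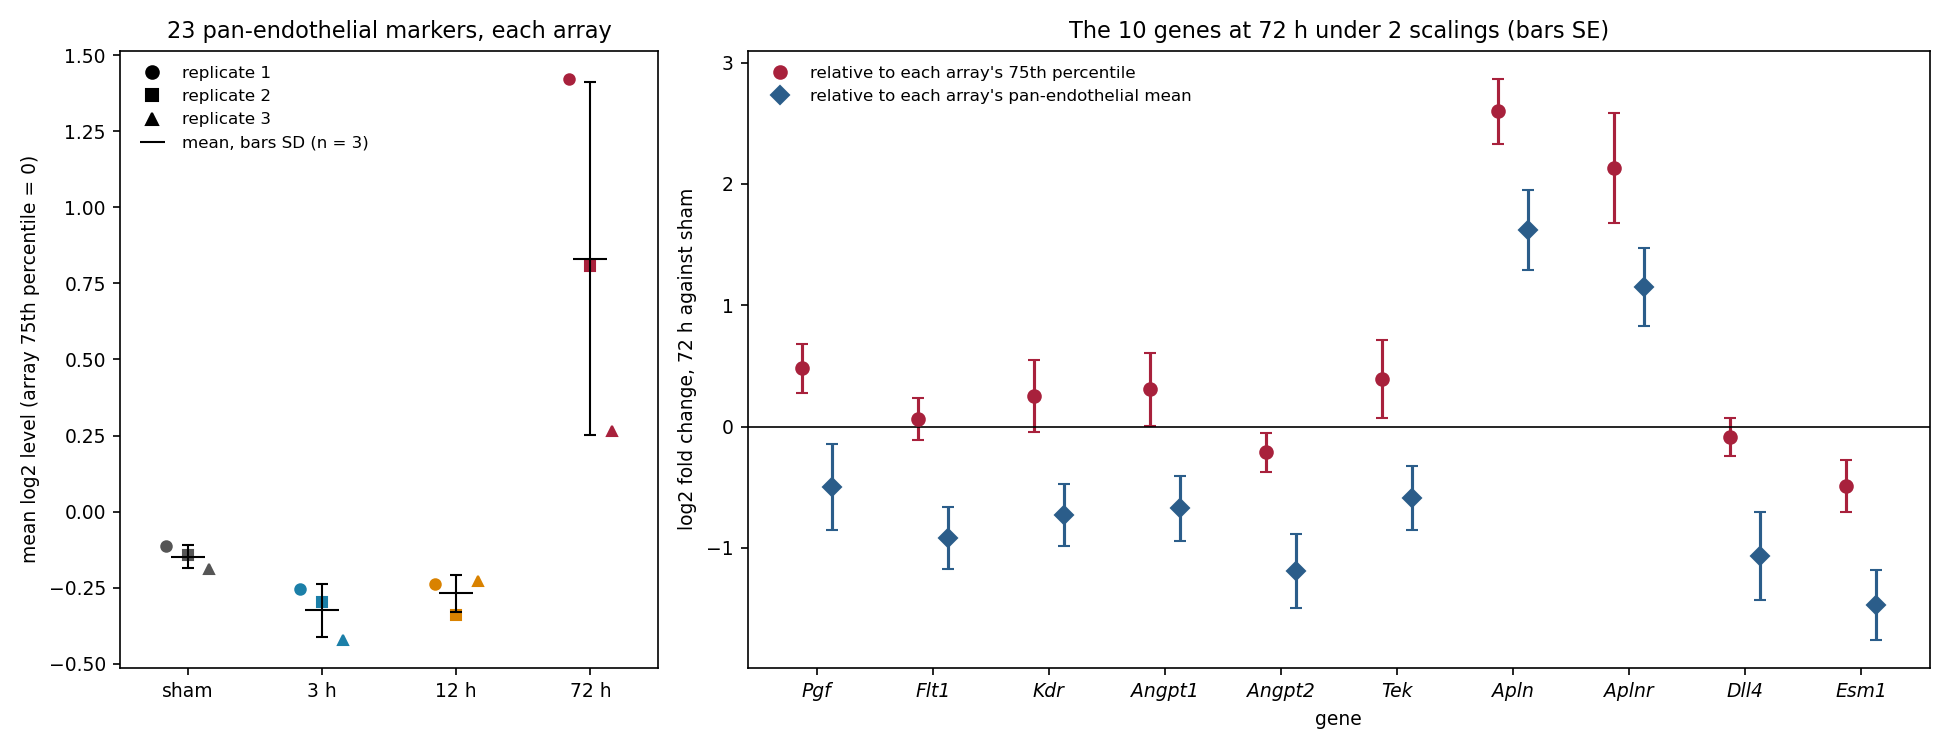
Left, mean log2 level of 23 pan-endothelial markers on each array (vertical axis) in the 4 groups (horizontal axis), with the mean and SD over 3 arrays; right, log2 fold change of the 10 genes at 72 h against sham (vertical axis, bars SE) relative to the array's 75th percentile (circles) or to its pan-endothelial mean (diamonds). The 72 h arrays reach from 0.26 to 1.42 on the left, and on the right only Apln and Aplnr are above 0 on both scales.

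Of the other VEGF family genes measured, 7 in all, none rose against sham at any time. Figf fell at 3 h, and Figf and Vegfc fell at 12 h, where 4.11% and 4.96% of all genes fell. The median log2 change of the 7 was -0.56, -0.71 and 0.30 at 3, 12 and 72 h. Vegfa, the main ligand of Kdr, measured 1.13, 1.08 and 2.17 in sham and 2.44, 2.36 and 1.79 at 12 h, and its differences of 0.16 ± 0.32, 0.73 ± 0.32 and 0.28 ± 0.32 at 3, 12 and 72 h did not pass. Figf, the array's name for VEGF-D, was at -0.45, -0.06 and -0.54 in sham, -2.90, -2.33 and -1.92 at 12 h and 2.69, 1.39 and 0.00 at 72 h. Its fall was 3.48-fold at 3 h (-1.80 ± 0.56, adjusted p = 0.0494) and 4.09-fold at 12 h (-2.03 ± 0.56, adjusted p = 0.0274), and its 72 h value did not pass (1.71 ± 0.56, adjusted p = 0.0566). Vegfc, a lymphatic growth factor, fell at 12 h at the very limit (-1.0 ± 0.10, adjusted p = 0.000137). Vegfb (-0.56, -0.71 and -0.26), the co-receptors Nrp1 (-0.74, -0.77 and 0.46) and Nrp2 (0.33, 0.18 and 0.65) and the lymphatic receptor Flt4 (-0.15, -0.24 and 0.16) were not called at 3, 12 or 72 h.

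Around Tie2, 8 further genes were measured. Angptl4, a secreted lipase inhibitor that does not bind Tie2, rose at all 3 times (2.40 ± 0.32, 2.48 ± 0.32 and 3.55 ± 0.32) and Tie1 rose at 72 h. Svep1, a matrix ligand of Tie1, fell at 12 h (-1.75 ± 0.23, adjusted p = 0.000611). Angptl2 was lower at 3 and 12 h, where it was not well above background on any array, by at least 2.03-fold (adjusted p = 0.0185) and at least 2.41-fold (adjusted p = 0.000948). Angptl1, above background on 1 of the 3 arrays at 12 h, was called lower there with overlap of arrays (adjusted p = 0.0445). The size of its change is not measured. Over the 8 genes the median log2 change was -0.65, -0.88 and 0.55 at 3, 12 and 72 h. Of all genes, 3.26%, 4.1% and 4.55% rose at these times, and 4.11%, 4.96% and 4.3% fell.

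In the Notch list of 11 genes, Dll1, a Notch ligand related to Dll4, rose at 3 h (2.15 ± 0.21, adjusted p = 0.000187) and 12 h (1.16 ± 0.21, adjusted p = 0.00364). Its levels were -1.14, -0.97 and -1.45 in sham and 0.80, 0.91 and 1.19 at 3 h. Notch4, the endothelial Notch receptor, rose at 72 h (1.15 ± 0.14, adjusted p = 0.000609), and the other 9 genes were not called against sham at any time. The median of the list was 0.38, 0.09 and 0.46. At 3, 12 and 72 h, 3.26%, 4.1% and 4.55% of all genes rose.

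**Figure D5:**
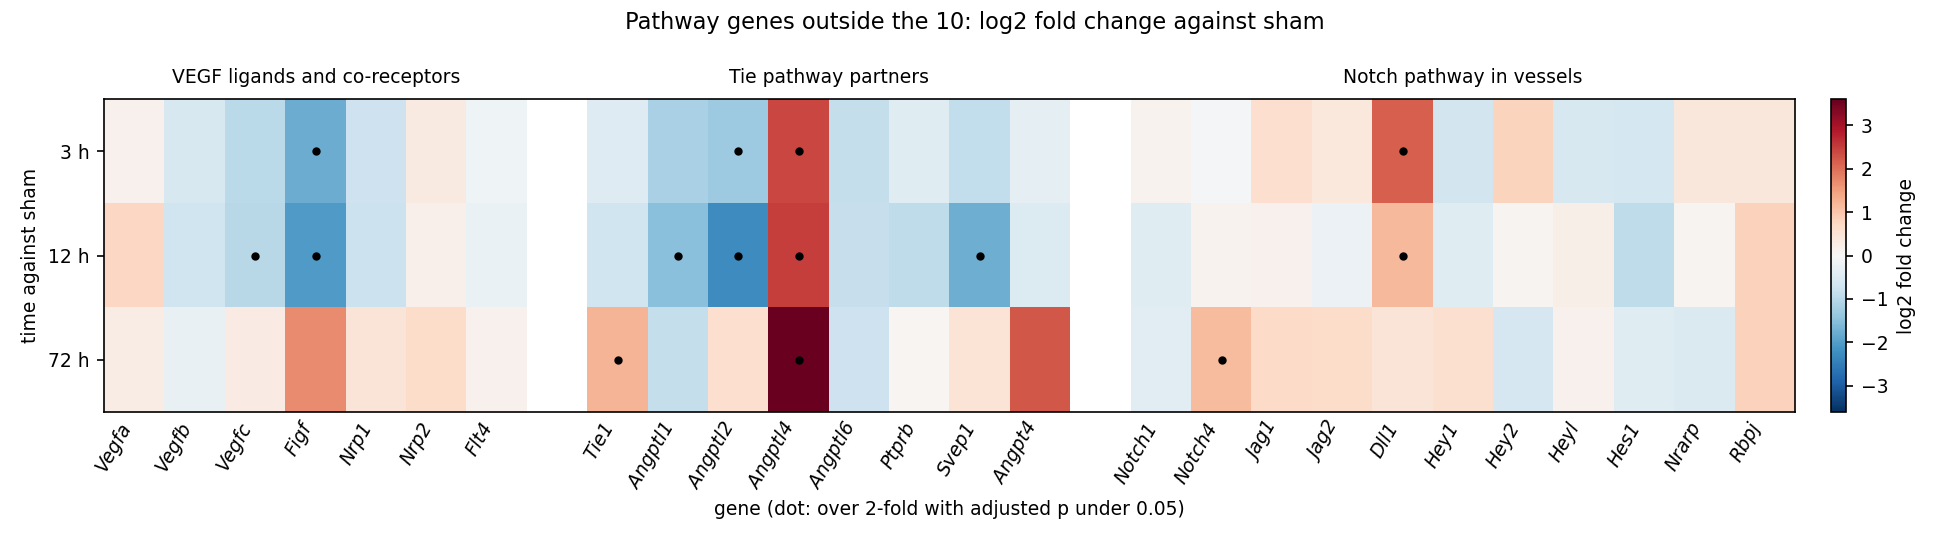
Log2 fold change against sham (colour scale) at 3, 12 and 72 h (rows) for 26 genes around the VEGF, Tie and Notch pathways other than the 10 (columns); dots mark genes past both limits. Angptl4 is dark red in all rows (2.40, 2.48 and 3.55), Figf turns from blue to red between 12 and 72 h, and Dll1 is red at 3 and 12 h.

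Genes that VEGF is known to induce within hours in cultured endothelium, and that many other stimuli induce too, rose at 3 h in 7 of 10, at 12 h in 6 and at 72 h in 4, with medians of 1.64, 1.1 and 0.83. Nr4a1, an orphan nuclear receptor, had the largest value of the 10 at 3 h (3.30 ± 0.30). Of 14 tip cell and sprouting genes, 3 rose at 3 h (Adm, Plaur and Ramp3), the same 3 rose at 12 h while Rgcc fell, and 6 rose and 1 fell at 72 h. Those at 72 h included the mural cell attractant Pdgfb (1.34 ± 0.23) and the basement membrane collagens Col4a1 (1.56 ± 0.18) and Col4a2 (1.21 ± 0.17), and Unc5b fell (-1.05 ± 0.16). Of 13 angiogenesis inhibitors, 3 rose and 1 fell at 3 h, 2 rose at 12 h and 6 rose at 72 h, with Thbs1, the gene of thrombospondin-1, at 3.78 ± 0.38, 4.59 ± 0.38 and 3.43 ± 0.38. Of 6 endothelial adhesion genes, 3 rose at 3 h, 3 at 12 h and 5 at 72 h, including the selectins Selp (4.15 ± 0.26 at 3 h) and Sele. Of 8 vasoactive genes, 2 rose at each time, Nos3, which makes nitric oxide in endothelium, at all of them (1.25 ± 0.21, 1.04 ± 0.21 and 1.4 ± 0.21). Of 12 hypoxia targets, 3 rose and 1 fell at 3 h, 4 rose at 12 h, and 2 rose and 1 fell at 72 h. Their medians were 0.25, 0.55 and 0.16. Beside all counts of this paragraph, 3.26%, 4.1% and 4.55% of all genes rose at 3, 12 and 72 h. The shares that fell were 4.11%, 4.96% and 4.3%. No list was tested against these shares.

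Markers of other cells moved with these times, and their part in the changes of the 10 genes was not tested. Beside the counts here, 3.26%, 4.1% and 4.55% of all genes rose at 3, 12 and 72 h, and 4.11%, 4.96% and 4.3% fell. Smooth muscle markers, all above background on every array, fell at 12 h in 7 of 7 and at 72 h in 6 of 7, and the log2 of their summed level went from 8.48 to 8.64 in sham to between 6.86 and 7.52 at 12 h. Fibroblast markers fell in 3 of 6 at 12 h and rose in 4 of 6 at 72 h, the summed level being 6.84 to 7.01 in sham, 6.32 to 6.48 at 12 h and 8.21 to 9.21 at 72 h. Pericyte and mural markers rose in 1, 1 and 3 of 8 at 3, 12 and 72 h. Of 5 macrophage markers, Cx3cr1 fell at 3 h (-2.79 ± 0.24), 2 rose and Cx3cr1 fell at 12 h, and 4 rose at 72 h. Neutrophil markers rose in 6, 6 and 5 of 8. Of 6 lymphatic markers, Pdpn alone rose, at all 3 times (1.73 ± 0.13, 2.32 ± 0.13 and 2.58 ± 0.13), and this podoplanin is also a mesothelial gene. Of 6 mesothelial markers, 3 of them above background on all arrays, 2 fell and none rose at 3 h and again at 12 h (Upk3b and Lrrn4, which were not above background on any array there), and at 72 h 2 rose and none fell (Upk1b, 1.78 ± 0.25, and Wt1, 4.40 ± 0.58). The list's medians were -1.02, -0.42 and 0.46, with 3, 2 and 5 of 6 on the positive side. Fat cell markers were called at no time but their summed level ran from 1.20 to 5.49 at 72 h against 3.10 to 3.82 in sham, and epithelial Car1 and Car4 fell at 72 h.

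For the 4 genes that differed among the groups, the genes with the most similar profile over the 12 arrays were sought among 20791 brightest probes above background on all arrays. Aplnr was followed most closely by Fkbp14 (Pearson r = 0.99), Chpf2 (0.99) and the endothelial sialomucin Emcn (0.99). Angpt1 was followed by Palld (0.98), Ephb6 (0.98) and Slc22a17 (0.98), Apln by Inhba (0.97), Galnt2 (0.97) and Ms4a4a (0.96), and Tek by Mir99ahg (0.97), Slc38a6 (0.96) and an unnamed transcript of chromosome 10 (0.96). Among the 10 genes themselves, Aplnr and Tek had r = 0.89 and Angpt1 and Tek had r = 0.89, while Apln and Aplnr, ligand and receptor, had r = 0.49. The 12 points share their groups, so these values describe the shared course over time and no more.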

How the data were processed

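Total RNA of 12 mouse ceca was labelled with Cy3 and hybridised to Agilent SurePrint G3 Mouse GE arrays. Agilent Feature Extraction files deposited by the authors hold an intensity per spot, linear and corrected for background but not yet comparable between arrays. A second deposited file holds log2 values that GeneSpring scaled at the 75th percentile. These proved to be centred on the median of each probe, with column medians from -0.18 to 0.13, and served as an alternative. The files give probe coordinates on mm9 and the gene names of the array design. Sequences upstream of genes are from RefSeq on GRCm38.p6. No coordinate was converted, and exons were not assigned.

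From the intensities, log2 was taken, spots flagged as outliers (53 to 152 per array) and control spots were dropped, repeated spots of a probe were averaged, and each array's 75th percentile was subtracted. One model with 4 group means was fitted with limma 3.58.1 in R 4.3.3 and p-values were adjusted by Benjamini-Hochberg over 56605 probes. Errors are SE of the fit, or SD where stated, for 3 arrays. Scripts were tested on simulated data. Folds of genes too dim in one group are lower bounds, computed from the lowest signal called above background on each of those arrays.

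The genes and the lists were chosen with earlier results of these data known. The genes named were the 10, all of the VEGF list, and up to 5 called genes with the largest change per list, not all of which are printed. Markers of other cells, Col4a2, Ramp3 and genes given with no call were named outside this rule, after their values were seen. The alternatives were other scalings, background corrections, filters, probes, blocks and tests, and leaving out each array. Python 3.11.15 read the files. One listed gene is not reported here.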

Additional observations from a re-analysis of the deposited data

Results flagged for a closer look

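Differences between the time points were tested as contrasts of the same limma fit, and those past both limits are listed here. Each compares the means of 2 time points directly, so the sham level cancels, though the sham arrays enter the shared estimate of the spread. From 3 to 12 h the change of Apln was larger by 1.08 (adjusted p = 0.0355), and from 3 to 72 h by 1.61 (adjusted p = 0.00172). From 12 to 72 h the values were 2.84 for Aplnr (adjusted p = 0.00272), 2.03 for Angpt1 (adjusted p = 0.00185) and 1.05 for Tek (adjusted p = 0.0493). From 3 to 72 h they were 3.40 for Aplnr (adjusted p = 0.000552), 1.64 for Angpt1 (adjusted p = 0.00288) and 1.32 for Tek (adjusted p = 0.012). The Flt1 probe A_52_P405145 had a value of -1.74 from 3 to 72 h (adjusted p = 0.0112), with 1 of its 12 arrays above background, so that the size of this difference is not measured. All 3 arrays of the later group were on the same side of the earlier group in each of these differences. As the differences were picked for passing both limits, this adds no support. The share of all probes without such overlap was not counted.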

How the results depend on the processing

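The rise of Apln at 12 and 72 h passed in all 27 and all 26 alternatives run, with values from 1.25 to 2.36 and from 1.62 to 3.48. Over the 41 results for single genes, 989 of 1098 values kept direction and call, 63 lost the call, 12 gained it and 34 turned sign, of which 1 belonged to a called result, that for Tek from 12 to 72 h (-0.054 when scaled to pan-endothelial markers). The cause of these shifts was not tested, except that normexp with its offset compresses dim probes by construction.

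The number of the 10 genes called at 3 h, 1 in the report, was 2 with quantile normalization, the filter on dim probes, slide 1 alone, only the 2 groups compared and the mean of all probes (there with Flt1, whose mean takes in a probe at background), and 0 with normexp; it ran from 0 to 2 without single replicates. At 12 h, 2 became 1 with normexp. At 72 h, 2 became 5 when scaled to pan-endothelial markers and 1 with the slide as a block or with an unmoderated test per probe. From 3 to 12 h, 1 became 0 with quantile normalization, the pan-endothelial scaling, normexp, the replicate block, only the 2 groups compared and the unmoderated test, and ran from 0 to 1 without single replicates. From 12 to 72 h, 3 became 1 with normexp, 1 with the slide block and 0 with the unmoderated test, and ran from 2 to 4 without single replicates. With the pan-endothelial scaling 3 became 5, where 69.6% of all genes passed and 68.7% were lower. Aplnr was higher there and Angpt2, Pgf, Esm1 and Dll4 were lower, while Tek (-0.054) and Angpt1 (0.93) were not called. Within slide 2 a single 12 h array stands for its group and 17 genes passed in all, and the values there were 2.13 for Angpt1 and 2.68 for Aplnr. From 3 to 72 h, 4 became 2 with normexp, 1 with the slide block and 2 with the unmoderated test, and ran from 3 to 5. With the pan-endothelial scaling the count stayed at 4 but only Aplnr was shared, where 72.5% of all genes passed and 71.3% were lower. Aplnr was higher there and Flt1, Angpt2 and Pgf were lower, while Apln (0.45), Angpt1 (0.48) and Tek (0.17) were not called. By the F-test, 4 became 8 with the pan-endothelial scaling, 6 with normexp or with the percentile taken over well-measured probes alone, and 3 with the slide block, lay at 4 or 5 in the other alternatives with all arrays, and ran from 3 to 6 without single replicates.

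Sign changes against sham belonged to values that were not called. They were Dll4 at 12 h (0.14 with quantile normalization, 0.11 with the pan-endothelial scaling, 0.036 with the slide block, 0.036 within slide 1) and at 72 h (0.034 with quantile normalization and 0.042 with the slide block), Esm1 at 12 h (0.033 with the pan-endothelial scaling, 0.040 with the slide block, 0.040 within slide 1), and, with the pan-endothelial scaling, Angpt2 at 3 h (0.014) and Angpt1, Flt1, Kdr, Pgf and Tek at 72 h (-0.67, -0.92, -0.73, -0.50 and -0.59). Normexp gave -0.024 for Pgf at 72 h. The second probe gave 0.087 for Angpt2 at 12 h, 0.0019 and -0.016 for Flt1 at 12 and 72 h and 0.65 and -0.23 for Kdr at 3 and 72 h, the Kdr and Angpt2 probes being dim. The mean of all probes gave 0.18 for Flt1 at 12 h and 0.084 and -0.042 for Kdr at 3 and 72 h. Without single replicates, values at 72 h ran from -0.090 to 0.61 for Angpt1, -0.22 to 0.10 for Dll4, -0.15 to 0.22 for Flt1, -0.10 to 0.57 for Kdr and -0.0085 to 0.80 for Tek, and at 12 h from -0.066 to 0.043 for Dll4 and -0.24 to 0.040 for Esm1.

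Same-numbered arrays deviated from their group means with correlations from -0.40 to 0.26, and 2 of 12 arrays correlated best with their own number, so the samples share only a number. The replicate block ended the calls of Apln from 3 to 12 h (adjusted p = 0.0573) and Tek from 12 to 72 h (adjusted p = 0.0574), and ended no other call of the 10 genes, while 5 in place of 4 passed the F-test. Over all genes the calls went from 1282 to 1116 and from 2788 to 2612. Over all genes, normexp gave 838, 1327 and 1258 calls at 3, 12 and 72 h in place of 2732, 3360 and 3282, the unmoderated test 1658, 2190 and 1505, the slide block 1152 at 72 h and the pan-endothelial scaling 24310.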
